A study of Mus musculus with 11 samples.

Results

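Ion channels and connexins are the proteins through which heart muscle cells generate and pass on the action potential, and 33 of their genes are described here. They were listed by symbol as potassium, sodium, pacemaker and calcium channel subunits, gap junction proteins and a few other channels. Of the 33, 28 were found among the 21878 rows of the deposited expression table by matching RefSeq accessions to symbols. These were 14 of 18 potassium channel genes, both sodium channel genes, both pacemaker channel genes, all 5 calcium channel genes, 2 of 3 connexins and all 3 other channels. Kcnj8, Kcnj3, Kcnd3, Kcne1 and Gjc1 were not analysed here.

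In a heart muscle cell, sodium channels carry the upstroke of the action potential, L-type calcium channels carry the inward current that triggers contraction, and several potassium currents bring the membrane back to rest. Mouse ventricle repolarises fast, mainly through transient outward and other voltage-gated potassium currents. Pacemaker channels of the Hcn family open on hyperpolarisation, and connexins form the gap junctions that pass the impulse from cell to cell.

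RNA of whole heart tissue was sequenced from female mice in 2 groups, and the labels give every sample the genotype WT. In 5 samples polycystic ovary syndrome (PCOS) had been modelled by giving anti-Müllerian hormone before birth, and the 6 control samples came from mice given vehicle, phosphate-buffered saline, before birth. Neither the age of the mice, the litter nor the chamber of the heart is stated in the sources used here, and the labels do not say that each sample is a separate mouse, so p-values reflect how far these samples scatter, part of which may be technical. Values are FPKM, that is, reads divided by transcript length and by the size of the library, so levels can be compared between genes per length. In bulk tissue, fewer cells of a type and less RNA per cell cannot be told apart.

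Some libraries differed from the rest in ways that their labels do not give. Control 6 stood apart: its median correlation with the other libraries was 0.962, against 0.987 to 0.993 for the rest, and its 7 liver marker genes summed to 1674 FPKM, against at most 9.21 in any other library. Controls 2 and 5 had Apoe, an apolipoprotein gene, at 6.04 and 8.29 FPKM, while the other 9 libraries ranged from 98.8 to 486 under the same WT label. The summed level of 3 macrophage markers (Cd68, C1qa and Lyz2) was 202 to 293 FPKM in PCOS and 90.1 to 172 in controls, without overlap. Taken singly, C1qa overlapped, at 38.73 to 62.55 FPKM in PCOS and 26.41 to 45.75 in controls, while Cd68 and Lyz2 did not. The part of any of these in the differences below was not tested, but for many members the difference without control 6, or without controls 2, 5 and 6, is given beside that from all samples. Of 4 ventricular markers, Myl3, the ventricular myosin light chain, was at 7074 to 8621 FPKM. The rest were far lower, Irx4 at 10.45 to 14.91, Mpped2 at 2.71 to 4.41 and Hey2 at 1.71 to 3.44 FPKM. The atrial markers Sln and Bmp10 stayed under 1 FPKM in every sample. Of the other 5 genes on the atrial list, Myl7 reached at most 2.51, Dkk3 1.59 and Myl4 2.89 FPKM, but Clu was at 289 to 342 and Nppa at 364 to 1474 FPKM, highest in controls 4 and 6. Of 5 conduction system markers, 4 were under 1 FPKM throughout, and of 7 skeletal muscle markers, 6 were, Myh4 being at 0 in every sample.

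Upstream sequence is shown for the members that lead the results below. RefSeq start sites were held for 20 of the 28 genes, with 24 upstream windows of 250 bases (GRCm38.p6). The windows of the most abundant connexin (Gja1, chr10:56377050-56377299, plus strand), the most abundant potassium channel gene (Kcnip2, chr19:45816064-45816313, minus strand), the regulatory KATP subunit (Abcc9, chr6:142702275-142702524, minus strand) and the gene with the smallest p (Clcn3, upstream of 2 listed starts, chr8:60983312-60983561, minus strand) are shown 5′ to 3′ along the gene. Capitals mark a match to one of the motifs searched.
Gja1: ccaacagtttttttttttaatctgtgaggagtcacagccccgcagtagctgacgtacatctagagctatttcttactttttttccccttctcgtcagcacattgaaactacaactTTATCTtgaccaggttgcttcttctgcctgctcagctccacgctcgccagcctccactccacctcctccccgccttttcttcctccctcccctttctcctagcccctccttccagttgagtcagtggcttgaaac
Kcnip2: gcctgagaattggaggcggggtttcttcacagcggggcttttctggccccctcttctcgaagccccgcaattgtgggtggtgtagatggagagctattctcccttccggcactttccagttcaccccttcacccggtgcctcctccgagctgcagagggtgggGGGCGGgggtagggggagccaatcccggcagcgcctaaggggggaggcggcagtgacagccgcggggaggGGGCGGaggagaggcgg
Abcc9: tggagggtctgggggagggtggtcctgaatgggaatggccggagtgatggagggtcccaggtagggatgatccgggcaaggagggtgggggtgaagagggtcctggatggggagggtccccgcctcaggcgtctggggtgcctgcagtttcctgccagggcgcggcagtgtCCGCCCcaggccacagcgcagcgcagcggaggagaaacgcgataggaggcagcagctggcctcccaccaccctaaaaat
Clcn3: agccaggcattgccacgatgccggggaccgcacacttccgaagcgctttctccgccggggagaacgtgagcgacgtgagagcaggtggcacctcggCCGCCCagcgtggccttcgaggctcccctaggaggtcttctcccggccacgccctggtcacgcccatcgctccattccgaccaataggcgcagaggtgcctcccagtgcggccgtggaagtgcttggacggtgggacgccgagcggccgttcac
In the Gja1 window the capitals are a match to the GATA motif on the opposite strand, and in the other 3 windows they are GC boxes, 2 of them in Kcnip2. A GC box (GGGCGG, either strand) was present in 14 of the 24 windows, or 58.3%, and in 32.7% of all 32851 promoter windows of the same length. The members' windows were also richer in G and C, with a median of 65.4% against 52.4%. A TATA box (TATAAA) was found in none of the 24, against 12.4% of all windows, and the GATA motif (AGATAA) in 1, against 9.99%. The NKX2-5 motif (TNAAGTG) was found in 2, in Cacnb2 and in the other start of Clcn3, against 10.1%, and the E-box (CACGTG) in 2, against 6.02%. No 2 matches overlapped in the windows shown. These are matches of letters on both strands, not binding sites.

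The 28 genes spanned a wide range of levels. Gja1 led at a mean of 152 FPKM over all 11 samples, followed by Kcnip2 (75.8), Kcnk3 (67.3), Kcnj11 (60.1) and Abcc9 (41.97 FPKM). The pore subunit of the L-type calcium channel, Cacna1c, was at 16.4 and its partner Cacna2d1 at 16.5 FPKM. At the low end were Hcn4, the main pacemaker channel of the sinus node, at 0.803 FPKM, and Kcna4, a transient outward channel, at 0.288 FPKM. These 2 were under the minimum mean of 1 FPKM and were not tested. They rested on 14 to 60 and 23 to 66 reads per sample, whereas Gja1 rested on 4918 to 7579.

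**Figure D1:**
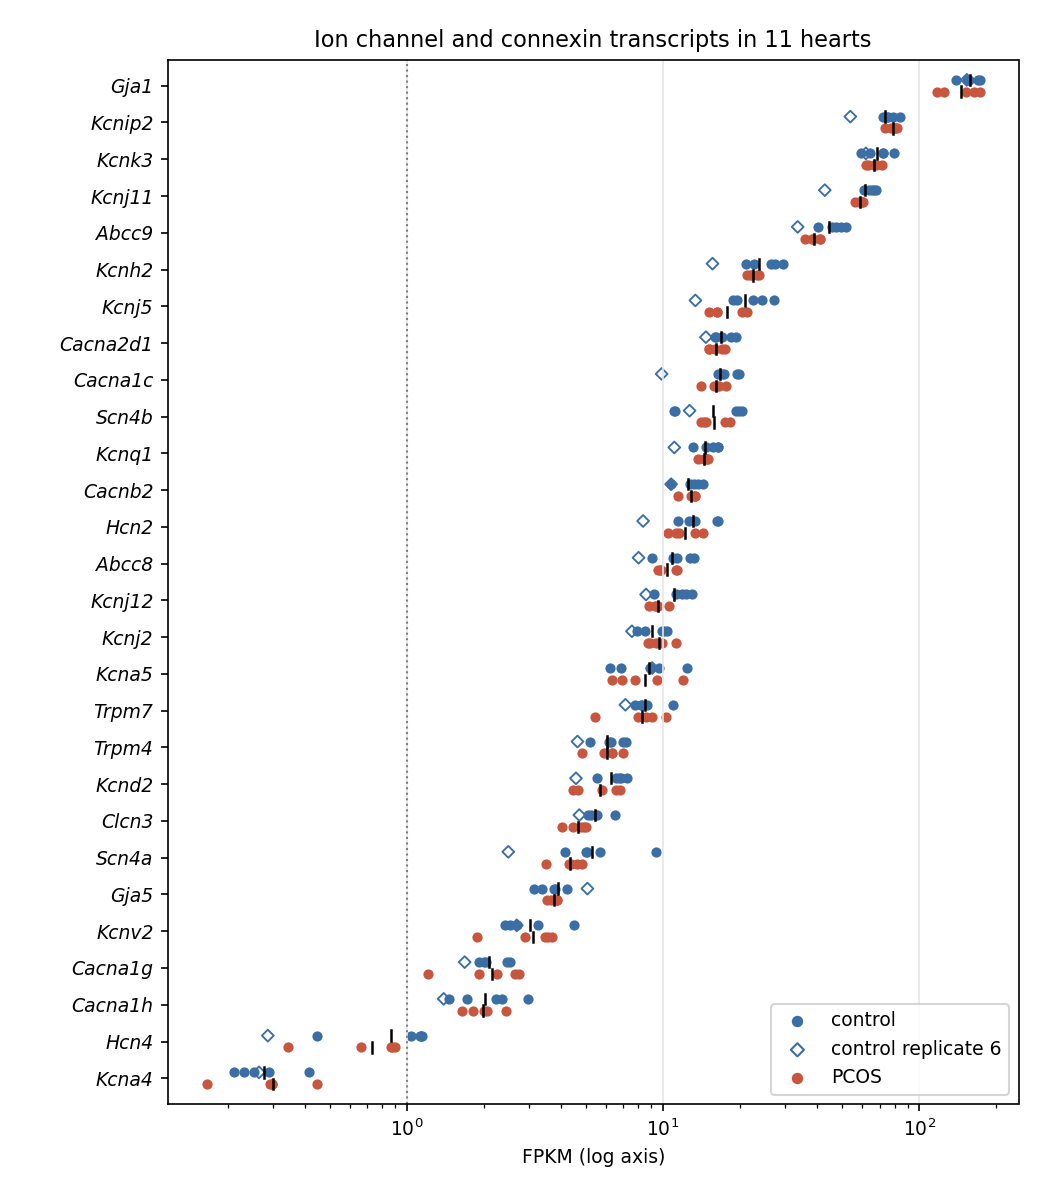
FPKM (log axis) of the 28 genes in each of the 11 samples, ordered by mean level. Blue circles are controls, the open diamond is control 6, red circles are PCOS, black ticks are group means, and the dotted line is the minimum mean for testing. The groups overlap for every gene, and the open diamond lies lowest for 17 of the 28.

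None of the 26 tested genes differed between PCOS and control hearts at an adjusted p of 0.05 (limma on log2(FPKM + 1), Benjamini-Hochberg over all 10891 tested rows). Over all those rows 15 passed, or 0.138%. With voom, limma's method for counts, on the recovered reads, no member passed either. At an unadjusted p under 0.05, 1 member was lower in PCOS, Clcn3, where 6.68% of all tested rows passed and 3.17% passed in that direction. In 17 of the 26 the difference, PCOS minus control, was below 0 and in 9 above it, where 49.4% of all tested rows were below 0. Among tested rows of at least 3000 bases, 61.5% were below 0, and the members had a median length of 4954 bases. The median difference of the members was -0.05 in log2(FPKM + 1). It was 0.00 over all tested rows and -0.03 over those of at least 3000 bases. On that scale the added 1 makes differences of weakly expressed genes look smaller than they are. No member had PCOS and control samples that did not overlap, where 0.698% of tested rows did, 0.248% with PCOS below and 0.45% with PCOS above. The 95% confidence intervals of the 26 differences ran from -0.61 at the lowest bound to 0.40 at the highest, and 24 of them lay within 0.5 on either side of 0.

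**Figure D2:**
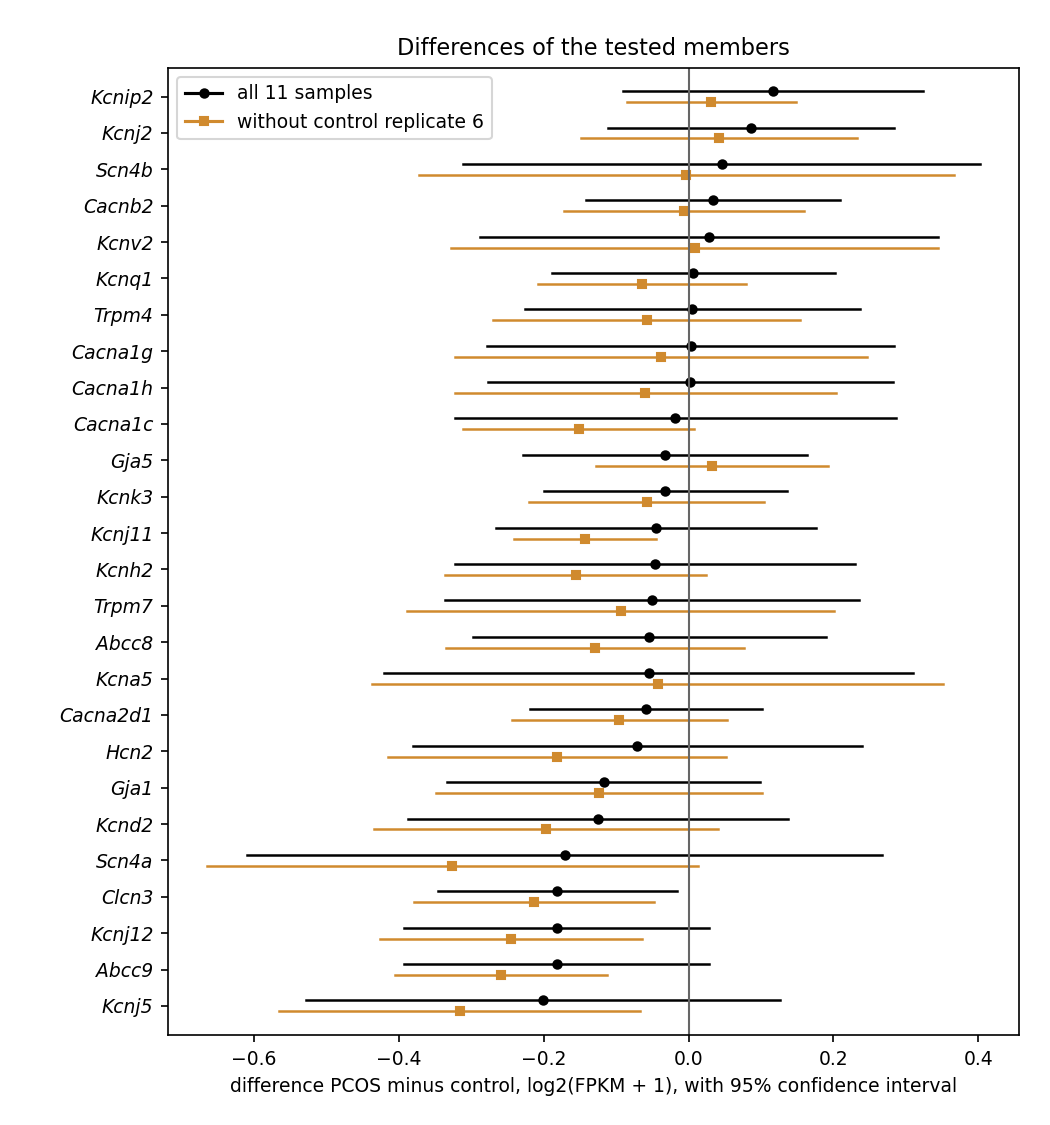
Difference between PCOS and control (log2(FPKM + 1) scale) with its 95% confidence interval for the 26 tested members, from all 11 samples (black) and without control 6 (orange). All black intervals but that of Clcn3 include 0, and leaving out control 6 moves most points to the left.

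Potassium channel genes made up the largest class, with 13 tested, of which 9 were lower in PCOS and 4 higher, with a median difference of -0.05. None was called. Kcnip2 (chr19:45792346-45816422) encodes KChIP2, the accessory subunit that brings Kv4 channels of the transient outward current to the membrane. Its control values had a lowest of 53.8, a median of 75.2 and a highest of 84.4 FPKM, and the PCOS samples were at 80.4, 77.8, 82.1, 80.3 and 73.3 FPKM. Only control 6 lay outside the range of 71.9 to 84.4 FPKM that held the other 10 samples. The means were 73.2 ± 10.4 (SD, n = 6) and 78.8 ± 3.41 FPKM (n = 5), a difference of 0.12 (SE 0.10, adjusted p = 0.798, limma), and without control 6 it was 0.03. Kcnd2 (chr6:21215346-21729805), the Kv4.2 pore that KChIP2 binds, had control values from 4.57 through a median of 6.63 to 7.24 FPKM. In PCOS it was at 4.45, 4.67, 5.78, 6.81 and 6.54 FPKM, so that PCOS 1 and 2 lay beside control 6 and the other 3 among the remaining controls. Its difference was -0.12 (SE 0.12, adjusted p = 0.813, limma), and -0.20 without control 6.

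The KATP channel, which opens when ATP runs low, is built of pore subunits (Kcnj11, Kir6.2) and sulfonylurea receptors (Abcc8, SUR1, and Abcc9, SUR2). Kcnj11 (chr7:46097123-46100952) in controls had a lowest of 42.8, a median of 64.7 and a highest of 67.7 FPKM. The PCOS samples were at 59.6, 58.0, 59.1, 60.5 and 56.3 FPKM, a narrow band just under the other 5 controls, whose lowest was 61.1, and far above control 6. With all samples the means were 61.2 ± 9.34 (SD, n = 6) and 58.7 ± 1.60 FPKM (n = 5), a difference of -0.04 (SE 0.10, adjusted p = 0.918, limma). Without control 6 the control mean was 64.9 ± 2.59 FPKM (n = 5) and the difference -0.14 (SE 0.05, unadjusted p = 0.00766, adjusted p = 0.140, limma), which did not pass.

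Abcc9 (chr6:142587862-142702766) had control values from 33.5 in control 6 through a median of 46.4 to 51.6 FPKM. In PCOS it was at 35.8, 38.0, 40.9, 40.8 and 38.6 FPKM. Controls 6 and 4 (40.4 FPKM) lay within or under the PCOS range and the other 4 controls above it. Means were 44.6 ± 6.62 (SD, n = 6) and 38.8 ± 2.14 FPKM (n = 5), with a difference of -0.18 (SE 0.10, adjusted p = 0.742, limma); without control 6 it was -0.26 (SE 0.07, unadjusted p = 0.00216, adjusted p = 0.106). Abcc8 (chr7:46104523-46180039) ranged in controls from 8.02 through a median of 11.1 to 13.2 FPKM. Its PCOS values of 9.69, 11.3, 9.52, 11.3 and 9.78 FPKM all lay inside that range, and the difference was -0.05 (SE 0.11, adjusted p = 0.908, limma). It was -0.13 without control 6 and -0.25 without controls 2, 5 and 6 (unadjusted p = 0.0173, adjusted p = 0.407, limma). Leaving out control 4 alone, the highest sample, brought it to 0.001, and leaving out control 1 alone to -0.008. Both of these controls remain in the settings above.

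**Figure D3:**
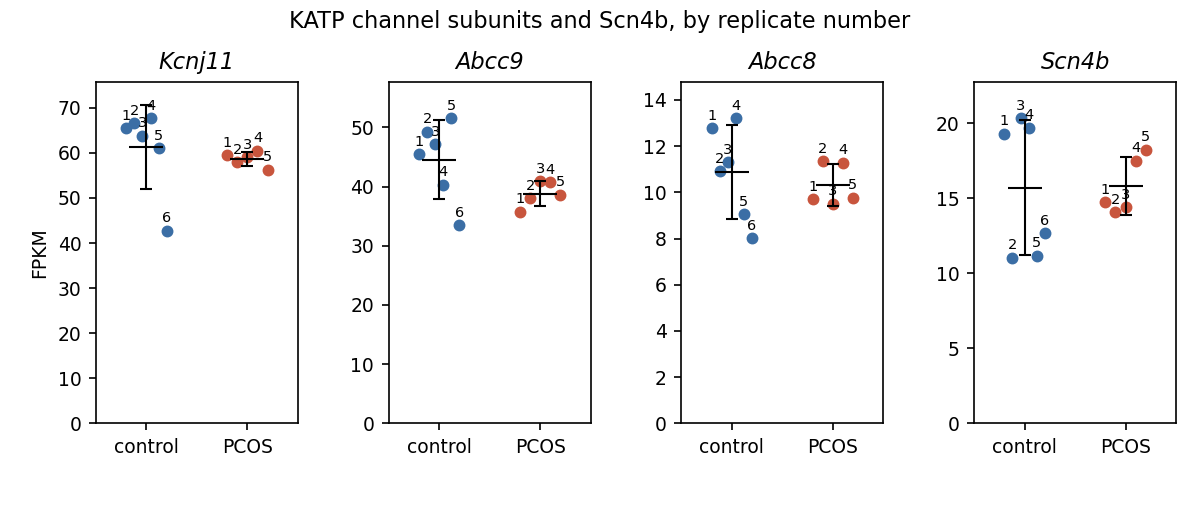
FPKM of the KATP genes Kcnj11, Abcc9 and Abcc8 and of the sodium channel beta subunit Scn4b in each sample, with the replicate number beside each point, the group mean (horizontal line) and SD (bar). Control 6 is the lowest control for the 3 KATP genes, and controls 2, 5 and 6 are the lowest for Scn4b.

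Inward rectifiers of the Kir2 type set the resting potential. Kcnj12 (Kir2.2, chr11:61022564-61073269), the potassium channel gene with the smallest p, had control values from 8.58 through a median of 11.5 to 13.0 FPKM. The PCOS samples were at 9.29, 9.56, 10.5, 8.82 and 9.40 FPKM, above control 6 and below controls 1, 2, 4 and 5, with control 3 (9.24 FPKM) among them. The difference was -0.18 (SE 0.10, unadjusted p = 0.0843, adjusted p = 0.742, limma) and without control 6 it was -0.25 (adjusted p = 0.154). Kcnj2 (Kir2.1), the other Kir2 gene among the members, went the other way in sign, at 9.04 ± 1.21 (n = 6) and 9.64 ± 1.02 FPKM (n = 5), a difference of 0.09.

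The other potassium channel genes are given by group means. Kcnj5, a subunit of the acetylcholine-gated channel, had the lowest difference of all 26 members, -0.20 (SE 0.15, adjusted p = 0.786, limma), with 20.9 ± 4.83 FPKM in controls (n = 6) and 17.8 ± 2.74 in PCOS (n = 5). Without control 6 it was -0.32 (unadjusted p = 0.0171, adjusted p = 0.170). Kcnk3 (the background channel TASK-1) was at 68.1 ± 7.61 and 66.3 ± 3.79 FPKM. Kcnh2 (the rapid delayed rectifier ERG) was at 23.7 ± 4.998 and 22.5 ± 0.985, and Kcnq1 (the slow delayed rectifier) at 14.5 ± 2.10 and 14.5 ± 0.511 FPKM. Kcna5 (Kv1.5, a mouse delayed rectifier) was at 8.84 ± 2.197 and 8.48 ± 2.26 FPKM, and Kcnv2, a silent modifier subunit, at 3.01 ± 0.783 and 3.10 ± 0.745. All these group differences were smaller than the SD among controls. For Kcnh2, whose lowest sample was control 6, the difference of -0.05 was -0.16 without that library and -0.22 without controls 2, 5 and 6 (unadjusted p = 0.0264, adjusted p = 0.420). For Kcnk3 and Kcnq1 it was -0.03 and 0.01, and -0.06 for both without control 6. Untested Kcna4 was at 0.278 ± 0.0726 and 0.300 ± 0.0998 FPKM.

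The sodium channel genes listed were a beta subunit and the skeletal muscle pore. Scn4b (chr9:45138624-45154155), which modulates sodium channel gating, had a lower and an upper set of control values: controls 2, 5 and 6 were at 11.1, 11.2 and 12.7 FPKM and controls 1, 3 and 4 at 19.3, 20.3 and 19.7. PCOS samples were at 14.8, 14.1, 14.4, 17.5 and 18.2 FPKM, all in the gap between those sets. The means were almost equal, 15.7 ± 4.51 (SD, n = 6) and 15.8 ± 1.93 FPKM (n = 5), with a difference of 0.05 (SE 0.17, 95% confidence interval -0.31 to 0.40, adjusted p = 0.953, limma). Controls 2 and 5 are the libraries with low Apoe and control 6 the one with liver markers. Against the other 3 controls alone the difference was -0.31, and it did not pass the adjusted threshold. Those 3 controls were the highest for Scn4b and lay above every PCOS sample, so leaving out the rest fixed a difference below 0 in advance. Scn4a (chr11:106317545-106365559), the pore known from skeletal muscle, had control values from 2.49 (control 6) through a median of 5.03 to 9.38 FPKM (control 4). In PCOS it was at 4.29, 4.59, 3.50, 4.85 and 4.38 FPKM, within that range, with a difference of -0.17 (SE 0.20, adjusted p = 0.838, limma). Without control 6 it was -0.33 (unadjusted p = 0.0581, adjusted p = 0.275), and without controls 2, 5 and 6 it was -0.50 (unadjusted p = 0.0118, adjusted p = 0.390). Leaving out control 4 alone, the highest sample, brought it to -0.01 (adjusted p = 0.990, limma), and control 4 remains in both settings above.

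Of the pacemaker channel genes, Hcn2 (chr10:79716634-79736108) is the form known from ventricle and Hcn4 (chr9:58822949-58863175) that of the sinus node. Hcn2 in controls had a lowest of 8.36 (control 6), a median of 13.0 and a highest of 16.4 FPKM, and PCOS samples were at 11.5, 10.5, 11.3, 13.3 and 14.3 FPKM. The groups overlapped, with means of 13.1 ± 3.02 (n = 6) and 12.2 ± 1.58 FPKM (n = 5) and a difference of -0.07 (SE 0.14, adjusted p = 0.906, limma). It was -0.18 without control 6 and -0.24 without controls 2, 5 and 6, and passed neither time. Leaving out control 1 alone, the highest sample, brought it to -0.004, and leaving out control 4 alone to -0.006. Both of these controls remain in the settings above. Hcn4 ranged in controls from 0.287 (control 6) through a median of 1.09 to 1.15 FPKM, and in PCOS it was at 0.663, 0.869, 0.899, 0.872 and 0.345 FPKM. Controls 1, 2, 4 and 5 lay above all PCOS samples, control 3 among them and control 6 below them, at a depth of at most 60 reads.

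Of the 5 calcium channel genes, 2 were lower in PCOS and 3 higher, with a median difference of 0.00. Without control 6 all 5 were lower, with a median of -0.06, and none was called. Cacna2d1 (chr5:15934264-16374511), the alpha2delta subunit that raises surface expression of L-type channels, was the most abundant. Its control values ran from 14.7 through a median of 16.5 to 19.3 FPKM, and its PCOS values were 15.1, 15.99, 15.1, 17.5 and 17.01 FPKM. Controls 2 and 5 lay above the PCOS range and control 6 below it, and the difference was -0.06 (SE 0.07, 95% confidence interval -0.22 to 0.10, adjusted p = 0.848, limma), and -0.10 without control 6. The pore Cacna1c was at 16.6 ± 3.60 (n = 6) and 16.1 ± 1.32 FPKM (n = 5), a difference of -0.02 (SE 0.14); control 6, at 9.87 FPKM, was far under the next lowest control, 16.4, and without it the difference was -0.15 (SE 0.07, unadjusted p = 0.0598, adjusted p = 0.278, limma). The beta subunit Cacnb2 was at 12.6 ± 1.496 and 12.8 ± 0.803 FPKM.

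T-type calcium channels open near the resting potential and are expressed at low level in adult ventricle. Cacna1g (chr11:94408391-94474400) had control values from 1.68 through a median of 2.01 to 2.52 FPKM, and PCOS values of 2.74, 2.64, 1.21, 2.24 and 1.91. PCOS held both the highest and the lowest samples. Cacna1h (chr17:25374285-25436334) ranged in controls from 1.39 through a median of 1.98 to 2.96 FPKM, and in PCOS it was at 1.64, 2.43, 1.82, 2.05 and 2, inside the control range. Both differences were 0.00 (SE 0.13, adjusted p = 0.996, limma), with signs that changed between processing settings. Without controls 2, 5 and 6, Cacna1h was at -0.23 (unadjusted p = 0.0526, adjusted p = 0.470, limma) and Cacna1g at -0.04. Without control 1 alone, its highest sample, Cacna1h was at 0.09.

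Of the 2 gap junction genes, Gja1 was the most abundant member of all and Gja5 among the low ones. Gja1 (connexin 43, chr10:56377300-56390419), the channel of the ventricular intercalated disc, had control values from 139 through a median of 154 to 172 FPKM. PCOS samples were at 117, 152, 164, 172 and 125 FPKM, so PCOS 1 and 5 lay below all controls and the other 3 among them. The SD was 24.1 FPKM around 146 in PCOS (n = 5) and 12.02 around 157 in controls (n = 6), and the difference was -0.12 (SE 0.10, 95% confidence interval -0.33 to 0.10, adjusted p = 0.804, limma). Control 6, low for most channels, was at 153 FPKM here. Gja5 (connexin 40, chr3:97032402-97053634), known from atrium, conduction fibres and arterial endothelium, had control values from 3.13 through a median of 3.78 to 5.07 FPKM, with control 6 the highest. PCOS values were 3.87, 3.83, 3.66, 3.51 and 3.85 FPKM, a narrower range inside that of controls, and the difference was -0.03 (SE 0.09, adjusted p = 0.937, limma).

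Among the other channels, Clcn3 (chr8:60910389-60983317), a chloride and proton exchanger of intracellular vesicles, had the smallest p of all members. Control values ran from 4.71 (control 6) through a median of 5.35 to 6.46 FPKM, and PCOS values were 4.05, 4.79, 4.47, 5.001 and 4.93 FPKM. Each of the 5 PCOS samples lay under the lowest of controls 1 to 5, 5.10 FPKM, and only control 6 overlapped them. The means were 5.42 ± 0.590 (n = 6) and 4.65 ± 0.393 FPKM (n = 5), a difference of -0.18 (SE 0.08, 95% confidence interval -0.35 to -0.02, unadjusted p = 0.0336, adjusted p = 0.738, limma). It did not pass the adjusted threshold with or without control 6 (adjusted p = 0.165 without). Trpm7 (chr2:126791558-126876261), a divalent cation channel joined to a kinase, had control values from 7.13 through a median of 8.25 to 10.9 FPKM and PCOS values of 10.3, 8.02, 5.41, 9.08 and 8.57. PCOS 3 was the lowest of all samples, and the difference was -0.05 (SE 0.13, adjusted p = 0.931, limma), and -0.09 without control 6. Trpm4, a calcium-activated cation channel, was at 6.06 ± 0.990 and 6.06 ± 0.791 FPKM.

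The balance between alternative subunits was compared within samples as log2((FPKM + 1)/(FPKM + 1)) for 4 pairs. For SUR1 over SUR2 (Abcc8/Abcc9) it was -1.95 ± 0.287 in controls (SD, n = 6) and -1.82 ± 0.126 in PCOS (n = 5), a difference of 0.13 (exact two-sided permutation p = 0.394). The connexin pair Gja5/Gja1 was at -5.02 ± 0.256 and -4.94 ± 0.283 (exact permutation p = 0.613). Hcn4/Hcn2 was at -2.91 ± 0.155 and -2.93 ± 0.349 (exact permutation p = 0.920), and Cacna1h/Cacna1g at -0.06 ± 0.223 and -0.06 ± 0.307 (exact permutation p = 0.998). The groups overlapped for all 4 pairs, and the Benjamini-Hochberg value over the 4 was 0.998 for each, where the smallest p these sample numbers allow is 0.00216.

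The spread between libraries was shared by many members. Control 6 was the lowest of the 11 samples for 16 of the 26 tested genes, where it was lowest in 20.7% of all tested rows. Its median deviation from each member's own mean was -0.28 on the log2(FPKM + 1) scale, against 0.18 in control 1, 0.15 in control 2, 0.09 in control 4, 0.03 in control 3 and -0.06 in control 5. The PCOS libraries lay closer together, from -0.08 (PCOS 3) to 0.07 (PCOS 4). The highest sample was a control for 25 of the 28 genes in the table, control 4 alone for 9. Controls were 6 of the 11 samples, and the matching share over all tested rows was not computed.

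**Figure D4:**
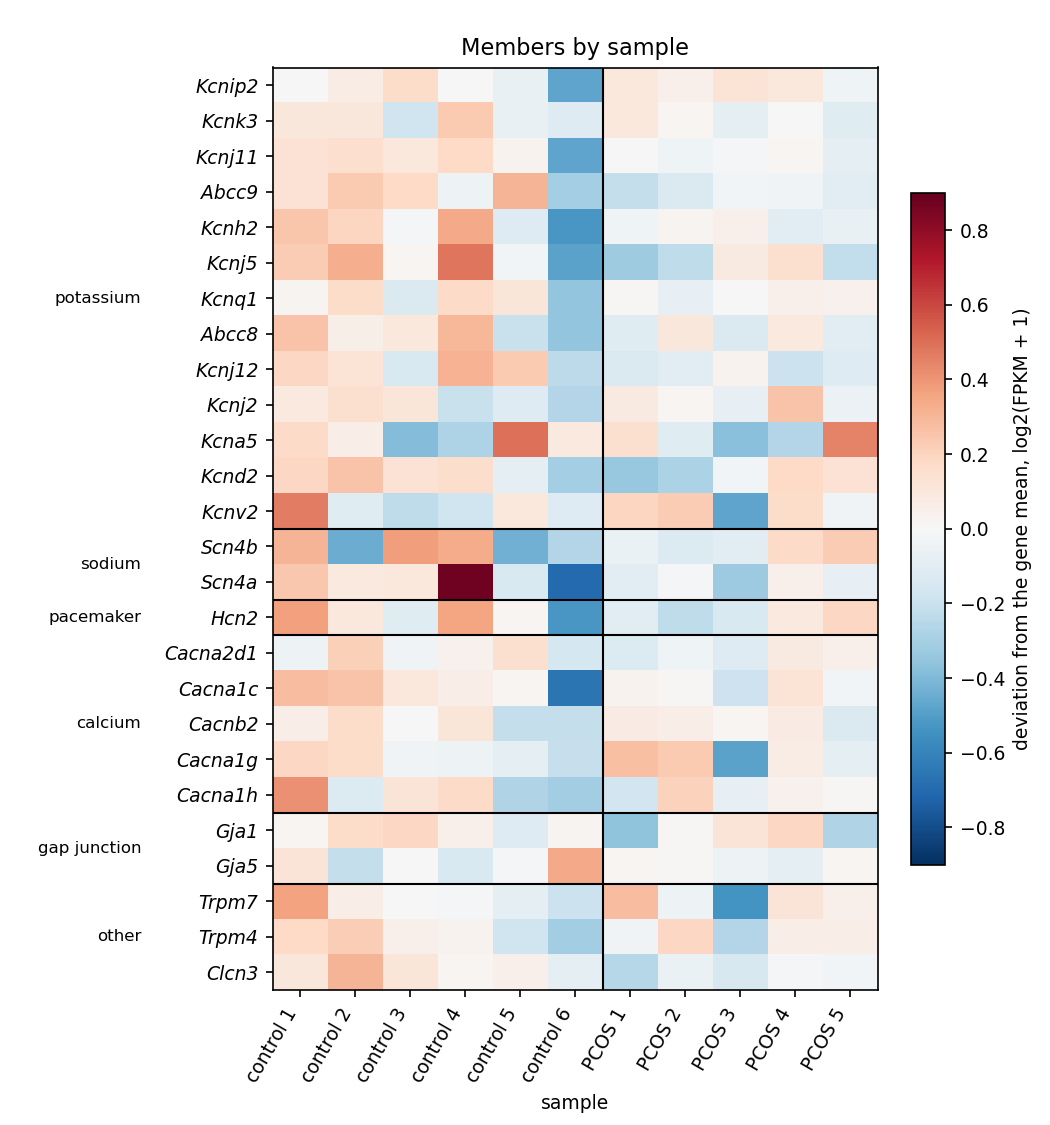
Deviation of each tested member from its own mean over the 11 samples (log2(FPKM + 1) scale, blue lower, red higher), by class, with a vertical line between controls and PCOS. Control 6 is blue for most channel genes but not for Gja1 and Gja5.

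Without control 6, 22 of 26 members were lower in PCOS, the median difference was -0.09, and still none was called, where 0.294% of tested rows were. Over all tested rows 50.3% were lower in that setting, and over those of at least 3000 bases 65.5%. At an unadjusted p under 0.05 there were 5, all lower (Kcnj5, Kcnj11, Kcnj12, Abcc9 and Clcn3), where 19.4% of tested rows passed and 9.75% passed and were lower. Of the 6145 rows of at least 3000 bases, 857 passed and were lower. The lowest adjusted p of a member was 0.106 (limma). Kcnj11 and Clcn3 had every PCOS sample below every remaining control, where 1.85% of rows did. In all, 3.55% of rows did not overlap without control 6, with 1.7% the other way. Without controls 2, 5 and 6 the members' median was -0.15, where it was -0.005 over all tested rows and -0.046 over those of at least 3000 bases. There 7 members were at an unadjusted p under 0.05 (Kcnh2, Kcnj5, Kcnj11, Abcc8, Abcc9, Scn4a and Scn4b). All 7 were lower, where 10.7% of rows passed and 5.06% passed and were lower. Of the 6145 rows of at least 3000 bases, 435 passed and were lower. For Scn4b the controls left out were its lowest, so its direction was fixed in advance. None of the 7 was called, where 0.202% of rows were. These sets of genes share Kcnj5, Kcnj11 and Abcc9, but both settings leave out control 6 and use the same PCOS samples. With only controls 2 and 5 left out, 0 members were at such a p, where 321 of the 10891 tested rows were.

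Transcript length moved with these differences over the whole table. The members are long, with a median of 4954 bases against 3346 for all tested rows, as implied by reads and FPKM. Among the 6145 tested rows of at least 3000 bases, the median difference was -0.03 and 61.5% were lower in PCOS. Among the 1475 rows under 1500 bases it was 0.09 and 20.3% were lower. Without control 6 the medians of these rows were -0.05 and 0.14. Within control 6, long rows deviated by a median of -0.09 and short rows by 0.20, and the members by -0.28. The part of length in the members' differences was not tested.

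**Figure D5:**
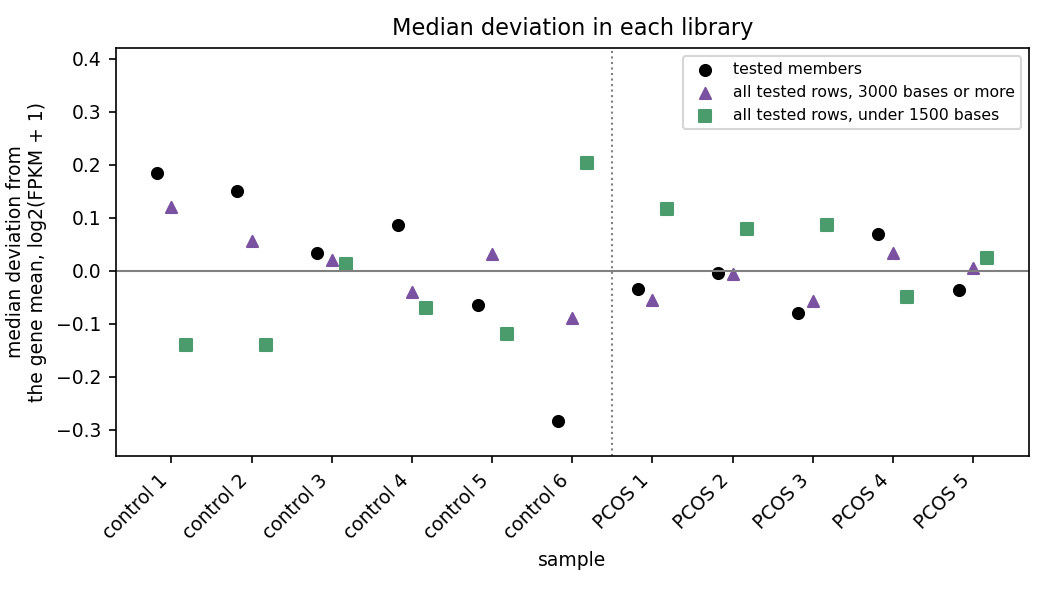
Median deviation from each row's own mean (log2(FPKM + 1) scale) in each library, for the tested members (black circles), all tested rows of at least 3000 bases (purple triangles) and rows under 1500 bases (green squares). Members and short rows lie on opposite sides of 0 in control 6, at -0.28 and 0.20, and in every other library but controls 3 and 5.

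Some members are known from atrium or node. Levels of 5 of these were set against the mean log2(FPKM + 1) of the atrial markers Myl7, Myl4, Sln and Bmp10 over the 11 samples. Gja5 had Pearson r = 0.63 (permutation p = 0.0293, Benjamini-Hochberg 0.146 over 5 relations) and Spearman rho = 0.75 (permutation p = 0.00995). Without the 2 samples farthest from the median score, r was 0.70, and within the 6 controls it was 0.80. Kcnj5 had r = -0.55 (permutation p = 0.0815) and rho = -0.47 (permutation p = 0.145), and Hcn4 r = -0.48 (permutation p = 0.136). Abcc8 and Kcnk3 had r = -0.19 and -0.11. None of the 5 passed the correction, and the 4 markers summed to only 1.51 to 4.38 FPKM in controls and 1.72 to 5.04 in PCOS.

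Other genes of the same pathways were counted from wider lists. Of 53 tested further channel and intercalated disc genes, 31 were lower and 22 higher in PCOS, with a median difference of -0.03, and none was called. Over all tested rows 49.4% were lower. The 4 at an unadjusted p under 0.05 are a share near the 6.68% of all tested rows at such a p (3.17% lower). All were lower: Clic5 (-0.26) and Clic4 (-0.18), of the intracellular chloride channel family, Tjp1 (-0.29), the tight junction protein ZO-1 that binds connexin 43, and Fgf13 (-0.19), which modulates sodium channels, each with an adjusted p of 0.738 (limma). By list, 4 of 8 potassium, 3 of 6 sodium, 4 of 6 calcium and 9 of 20 other channel genes were lower. The gap junction and disc genes had 11 of 13 lower, with a median of -0.12, where all tested rows had 0.00. Tested rows of at least 3000 bases had -0.03, with 61.5% lower. Without control 6, 37 of the 53 genes were lower, where 50.3% of all tested rows were, and 65.5% of those of at least 3000 bases. At an unadjusted p under 0.05 there were 20 of the 53, 18 of them lower, and again none was called. Over all tested rows 19.4% were at such a p, and 9.75% were at such a p and lower. Of those 20, 11 were among the 13 gap junction and disc genes, 10 of them lower and 1, the connexin gene Gja4, higher (0.25). Of 12 tested transcription factors known to control cardiac channel genes, 7 were lower and 5 higher, and none was called or at an unadjusted p under 0.05, where 3 were at such a p without control 6.

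Some values carry a further limit of counting. In the GENCODE M21 annotation, exons of Kcnk3, Kcnq1, Abcc9, Cacna1h, Cacnb2 and Gja5 share bases with exons of a gene on the opposite strand, such as Kcnq1ot1 for Kcnq1. The strand setting used in counting is not given in the sources used here. Whether reads of these members and of their partners were kept apart within the shared stretches, each of 111 to 618 bases, is therefore not known.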

How the data were processed

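The authors deposited FPKM per RefSeq gene model for 11 heart libraries. The labels' protocols name a mirVana extraction and stranded TruSeq mRNA libraries. For the reads, the submitters' processing notes list the build mm10 and, with no settings, the aligner HISAT2 2.2.1, the counter HTSeq 0.13.5, the trimmer Trimmomatic 0.38, FastQC 0.11.9, DESeq2 1.18.1 and R 3.4.1. Accessions were matched to symbols in a RefSeq table of GRCm38.p6 (87.2% of 21878 rows); sample groups came from the titles. In all 15939 rows above 0 in at least 3 samples, FPKM were whole multiples of 1 read (within 0.02 of a whole number), which gave 11866291 to 14346620 reads per library.

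FPKM were tested as deposited with limma 3.58.1 (R 4.3.3; trend) on log2(FPKM + 1), keeping the 10891 rows whose mean FPKM reached 1, with Benjamini-Hochberg adjustment over all rows; the code was tested on simulated data. Of 6 planned subunit ratios 4, and of 6 planned relations to atrial markers 5, had both genes in the table. Members named with values in every sample were those past either threshold, the most abundant and the smallest p of each class, and both genes of each ratio; for 6 controls the lowest, median and highest stand. A gene that the naming rule includes is not reported here. Kcnj5 and Cacna1c received more detail after their values were seen. Kcnh2, Kcnj2, Kcnk3 and Kcnq1 also have differences given, beyond the group means or ranges that the rule set for them. Members and lists were chosen with earlier results of these data known. Alternatives covered pseudocount, filters, scaling, replicate block, sample weights, voom on recovered reads and left-out libraries.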

Additional observations from a re-analysis of the deposited data

Results flagged for a closer look

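In 3 of 56 groups of samples, a member's highest or lowest sample stood far from the others by Dixon's 95% criterion; chance alone gives about 1 in 20. Kcnj11 in control 6 was at 42.8 FPKM, with the next control at 61.1, a gap of 0.734 of the group's range against a critical 0.625. Cacna1c in control 6 was at 9.87 FPKM, with the next control at 16.4 (0.654 of the range). Cacnb2 in PCOS 5 was at 11.4 FPKM, with the next PCOS sample at 12.8 (0.733 against 0.710). Control 6 also carried the liver markers.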

How the results depend on the processing

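No member was called under any of the 21 alternatives, and no ratio or atrial relation passed its correction. Over all genes, 15 were called; it was 5 with a filter at a mean of 5 FPKM, 25 with the replicate block, 25 with sample weights, and 10 to 32 when 1 replicate was left out (32 without control 6). The 1 member at an unadjusted p under 0.05 became 6 with the replicate block, 4 with sample weights, 0 without controls 2 and 5, 7 without controls 2, 5 and 6, and 0 to 5 with 1 replicate left out. Over all 10891 tested rows, 727 were at such a p; it was 1964 with the block, 2062 with sample weights, 321 without controls 2 and 5, and 1160 without controls 2, 5 and 6, so these counts moved over the whole table. The replicate numbers do not pair the samples (correlations of same-numbered samples from -0.12 to 0.25), and control 6, with no partner, drops out of the block. Of 332 alternative differences of the 16 members named with values, 296 kept their sign; 9 members never reversed. Cacna1g, at 0.00 in the fit reported, was -0.0095 with a pseudocount of 0.1, -0.00024 with median-ratio scaling, -0.038 with the replicate block, -0.010 with sample weights, -0.023 with voom, -0.037 without controls 2, 5 and 6, and -0.065 to 0.12 with 1 replicate left out. With the replicate block, Scn4b was -0.0029, Gja5 0.032 and Cacna1h -0.060; Gja5 was 0.040 with sample weights. Without controls 2 and 5, Scn4b was -0.16, Cacna1h -0.096 and Cacna2d1 0.018; without controls 2, 5 and 6, Scn4b was -0.31 and Cacna1h -0.23. With 1 replicate left out, Scn4b ranged from -0.040 to 0.13, Gja5 from -0.079 to 0.032, Cacna1h from -0.060 to 0.086, Abcc8 from -0.13 to 0.0011, Trpm7 from -0.13 to 0.076, and the members' median from -0.095 to -0.0059. The Cacna1h/Cacna1g ratio difference was 0.024 with a pseudocount of 0.1 and -0.10 to 0.11 with 1 replicate left out. The Abcc8/Abcc9 difference was -0.016 without controls 2 and 5 and -0.061 without 2, 5 and 6. Hcn4/Hcn2 was 0.067 and 0.11 there, and -0.098 to 0.12 with 1 replicate left out. The causes were not tested. With 5 and 6 samples, the interval of a member's difference reached up to 0.44 to either side, and Hcn4 and Kcna4 were limited by reads.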
